A study of Mus musculus with 3 samples.

Results

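The chemokine genes Ccl21a, Ccl19, Cxcl13, Ccl11, Ccl2, Ccl7, Cxcl14, Cxcl10 and Cxcl16 and the scavenger receptor gene Ackr4 were followed across the stroma of the aged mouse thymus. They were chosen by symbol, and all 10 were found among the 32253 gene symbols of the count tables. The tables came from single-cell RNA sequencing of CD45- thymic stromal cells of untreated 20-month-old C57BL/6 mice, in 3 libraries that were each the sole library of their group. Foxn1Lin female and Foxn1Lin male are Foxn1 lineage trace mice, in which a Cre recombinase under the control of Foxn1, a transcription factor of thymic epithelium, switches on tdTomato in a cell and its progeny, and WT male is wild type. Values given as a series of 3 keep the order Foxn1Lin female, Foxn1Lin male, WT male. Each library pooled 10 to 15 thymi, so n = 1 per group and differences between animals were not measured. The protocol in the labels speaks of female mice for all libraries while the sex field gives 2 libraries as male, and the cell type field of WT male adds PECAM1+, which its title does not.

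Chemokines are small secreted proteins that guide cells carrying the matching receptor. Ccl21a and Ccl19 encode the ligands of CCR7, which draw thymocytes into the medulla of the thymus and lymphocytes and dendritic cells into lymph nodes, and Cxcl13 encodes the B cell attractant that binds CXCR5. Ackr4 encodes an atypical receptor that takes up and degrades CCL19, CCL21 and CCL25 without signaling. Ccl2 and Ccl7 recruit monocytes through CCR2, Ccl11 (eotaxin) recruits eosinophils through CCR3, and Cxcl10 is an interferon-induced ligand of CXCR3. Cxcl16 is made as a membrane-bound ligand of CXCR6, and Cxcl14 is a chemokine made by epithelial and stromal cells at rest.

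Cells were classed by gates on counts of unique molecular identifiers (UMIs, each marking 1 captured transcript). Thymic epithelial cells (TEC) had at least 2 Epcam UMIs, endothelial cells (EC) at least 2 of Pecam1, fibroblasts (FB) at least 2 of Pdgfra and mesothelial cells at least 2 of Upk3b, and mural cells had at least 5 of Rgs5 and Acta2 together. Barcodes in several classes were dropped. The libraries held 8616, 3583 and 5478 called barcodes, of which 4969, 2566 and 3838 fell into 1 class. TEC numbered 467, 430 and 878, EC 1883, 823 and 862, FB 1852, 864 and 1709, mural cells 427, 449 and 353, and mesothelial cells 340, 0 and 36. Markers outside the gates went with the names, with each list far highest in its own class, except that the FB list (Col1a1, Col1a2, Col3a1, Dcn, Lum and Dpt) was also high in mesothelial cells, at a summed 9466 CPM (a level per class, with the UMIs of each sum scaled to the same total) in Foxn1Lin female and 10292 in WT male, against up to 16870 in FB. Libraries shared 3 to 14 barcodes. In Foxn1Lin female 26.5% of UMIs lay outside called barcodes, against 12.9% and 9.46% in the others.

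The stroma was divided among these chemokines. Each of the 10 genes was highest in one and the same main class (TEC, EC, FB or mural) in all 3 libraries. The same held for 60.2% of the 20404 genes with at least 20 UMIs. That share includes genes near 20 UMIs, whereas Ackr4, the member with fewest, had 202 to 743 in TEC alone, so it is not matched for counts. For Ccl19 in Foxn1Lin female the place rests on 1 mural barcode. Without it, mural cells (179 CPM) lay below FB (203) and TEC (324). Cxcl13, Ccl11, Ccl2, Ccl7 and Cxcl14 were highest in FB, Ccl21a, Cxcl10, Cxcl16 and Ackr4 in TEC, and Ccl19 in mural cells, and none was highest in EC. Among mesothelial cells, Cxcl16 exceeded its TEC level in both libraries that held such cells.

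**Figure D1:**
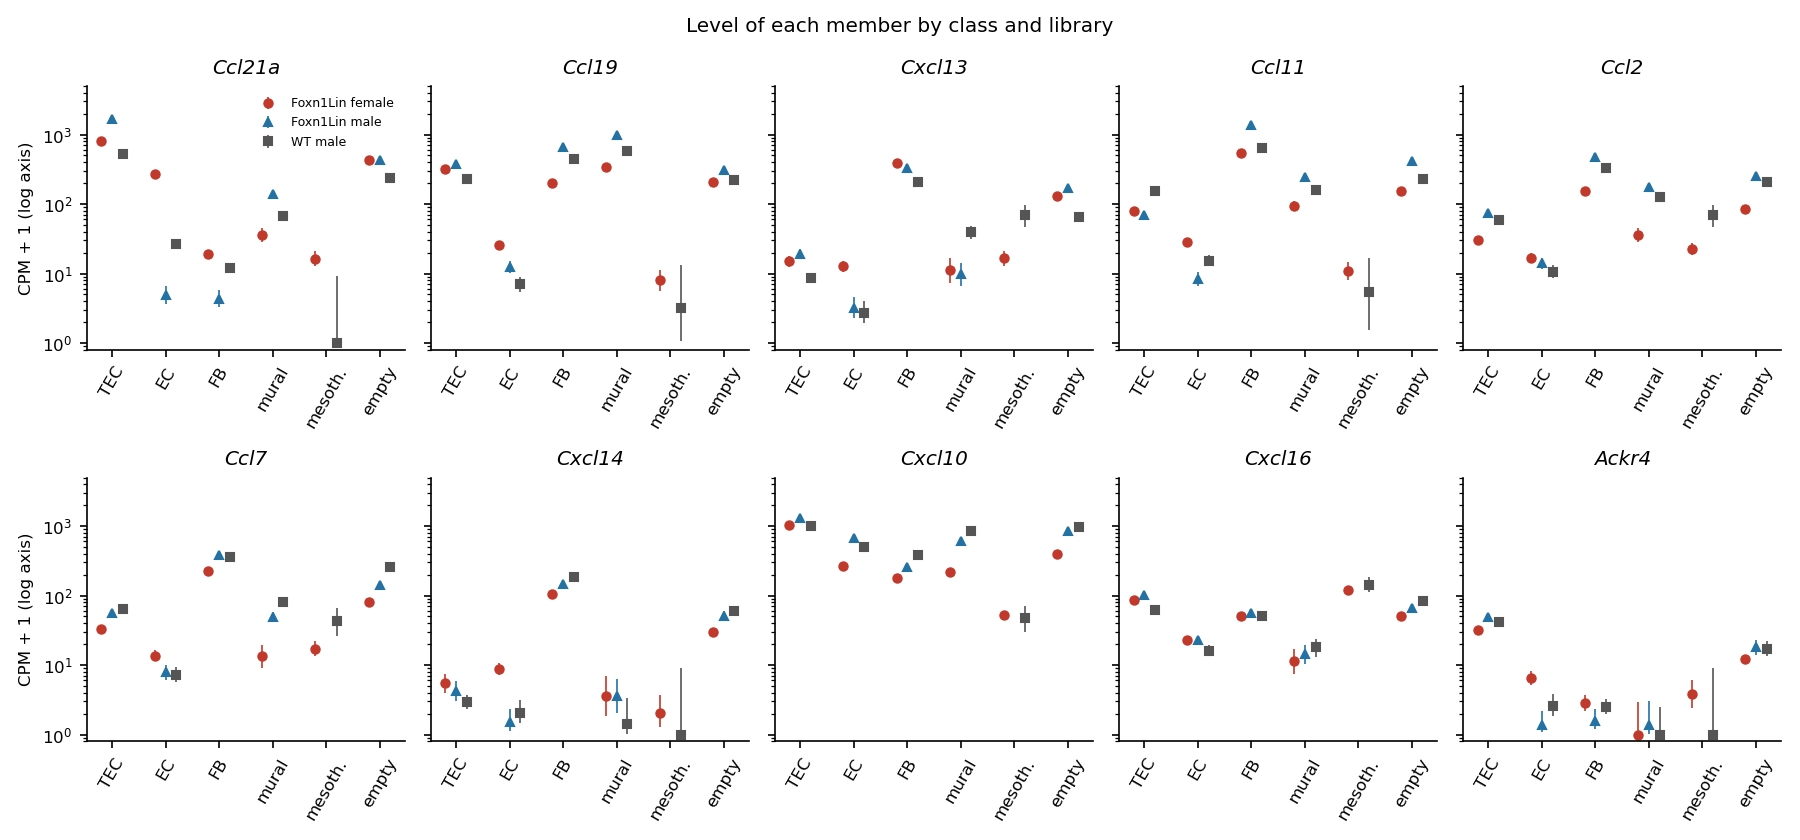
Level of each chemokine gene by class and library, as CPM of summed UMIs plus 1 on a log axis, with 95% Poisson intervals of counting error; empty droplets are shown at the right of each panel. In FB, Ccl11 reached 535 to 1357 CPM, while Ackr4 and Ccl21a stood highest in TEC.

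Classes were tested against each other within libraries, with edgeR's quasi-likelihood test on UMIs summed per library and class, the library as a block and Benjamini-Hochberg adjustment over 17593 genes. The classes of 1 library come from the same thymi and share free RNA. TEC had 4 of the 10 members higher than the mean of the other main classes and 2 lower, where 32.3% of all genes were higher and 25.4% lower. FB had 7 higher and 2 lower, against 20.2% and 19.9% of all genes. EC had 0 higher and 6 lower, with 22.7% of all genes higher and 22.7% lower. At an unadjusted p under 0.05 the count of members higher in EC was also 0, and DESeq2 gave 0. Mural cells had 1 higher and 3 lower, against 17.1% and 13.7%, and mesothelial cells had 1 higher and 3 lower, against 13.0% and 11.5%. Without Foxn1Lin male, or without WT male, the count lower was 0 in TEC and 1 in FB. In mural cells it was 1 without WT male. The median log2 fold change over the members was 2.32 in FB and -2.23 in EC, while the median over all genes was -0.05 and -0.06.

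**Figure D2:**
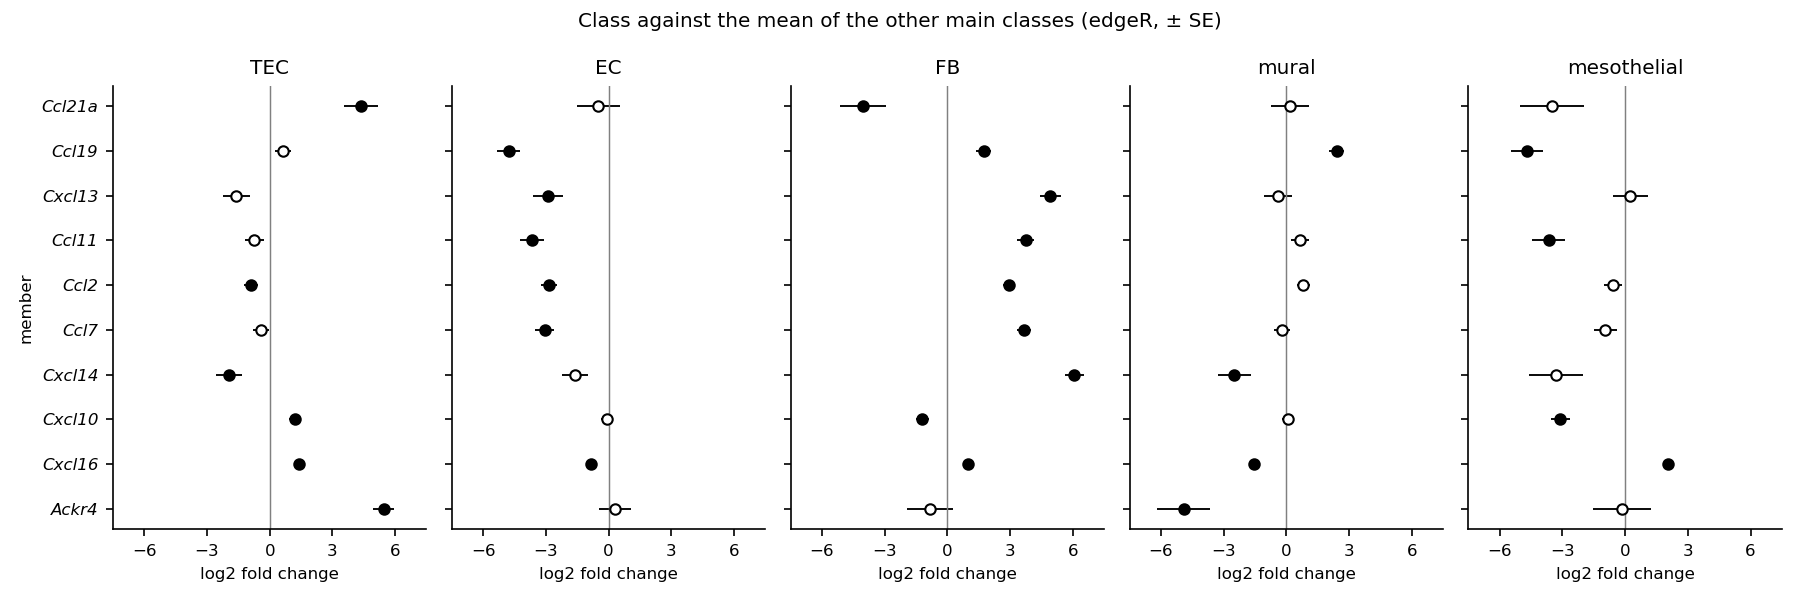
Log2 fold change of each member in a class against the mean of the other main classes, with its standard error (edgeR); filled points had an adjusted p under 0.05. In FB 7 members with a filled point lie to the right of 0, and in EC 6 lie to the left.

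Ccl21a was highest in TEC. Its level there was 808, 1655 and 526 CPM. In FB it was 17.9, 3.36 and 11.0 CPM, and in mural cells 35.3, 140 and 66.4. The lowest TEC value was above the highest value of every other class, and Ccl21a was higher in TEC by 4.37 ± 0.81 on the log2 scale (SE; adjusted p = 0.00081, edgeR). It was lower in FB, with a log2 fold change of -4.05 ± 1.11 (adjusted p = 0.014), a call that was lost without WT male (adjusted p = 0.109). Empty droplets held 432, 426 and 238 CPM, above every class but TEC in each library. Ccl21a shares near-identical copies with other genes of its family, and a row of the same symbol on an unplaced scaffold added 1 UMI per library, so reads of such copies may have been split or dropped. The gene lies on chromosome 4 (42772860 to 42773993, minus strand, GRCm38, GENCODE vM21), and 16282 bases separate it from Ccl19 (42754525 to 42756577, minus strand).

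Few TEC carried most of the Ccl21a transcripts. The 10% of TEC richest in it held 91.5%, 85.5% and 92.2% of the UMIs. When each barcode was thinned to 2000 UMIs, 21.3% of TEC in Foxn1Lin female (95% Clopper-Pearson interval 17.6 to 25.4), 24.1% (20.1 to 28.6) in Foxn1Lin male and 16.8% (14.4 to 19.5) in WT male had a Ccl21a UMI. These intervals, and those of levels, cover counting error only. In FB, where the level lay below that of free RNA, the thinned share was 4.18%, 0.581% and 1.13%, and unthinned shares in TEC were 36.8%, 33.3% and 28.8%.

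Ccl21a varied between smaller gates within TEC. Barcodes with none of the cortical (Prss16, Psmb11 and Ly75, 5 UMIs together), Aire and Cldn3 gates had 1752, 3085 and 1280 CPM. The cortical gate had 1181, 994 and 591 CPM, whereas the Aire gate, which marks mature medullary TEC, had 105, 210 and 102, below the cortical gate in all 3 libraries. The genes that differed most between TEC with and without Ccl21a, by the smallest log2 ratio over the libraries, were Ccl11, Gpx3, Krt14, Krt5 and Ryr3. Krt5 and Krt14 are keratins of medullary and basal epithelium. Ccl11 was at 156, 174 and 342 CPM in TEC with Ccl21a and at 23.8, 15.0 and 65.4 CPM in TEC without it.

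In EC, Ccl21a set the libraries apart. Its level was 266, 3.94 and 25.8 CPM, a 67.5-fold difference between both Foxn1Lin libraries. The class fit gave no call (log2 fold change -0.49 ± 1.02, adjusted p = 0.74), but without Foxn1Lin female the log2 fold change was -2.52 and the adjusted p was 0.0345. In Foxn1Lin female, 18 of 1883 EC barcodes had 10 or more Ccl21a UMIs and together held 2183 of 2488 UMIs (87.7%), up to 387 in a single barcode. Foxn1Lin male had no EC barcode above 1 UMI, and in WT male 3 of 862 had 10 or more, with 148 of 193 UMIs. Without the barcodes with 10 or more, the EC level was 33.6 CPM in Foxn1Lin female and 6.06 in WT male.

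These 18 barcodes, singled out after their values were seen, had endothelial genes and several genes known from high endothelial venules, the vessels through which lymphocytes enter lymph nodes. Cdh5 was at 790 CPM in them and 902 CPM in the other EC of the library, and Epcam at 3.54 against 6.83 CPM. Krt5, the keratin found with Ccl21a in TEC, was at 53.1 against 9.25 CPM, from 15 UMIs in 2 of the 18 barcodes. In the 3 such barcodes of WT male, Epcam was at 19.3 against 3.50 CPM (1 UMI) and Krt5 at 135 against 3.50 CPM (7 UMIs), and the part of epithelial RNA in the EC level of Ccl21a was not tested. Glycam1, which encodes a ligand of L-selectin, was at 26605 CPM and present in 14 of 18 barcodes, against 30.8 CPM in the other EC. Fut7, an enzyme that makes such ligands, was at 110 against 0.44 CPM and present in 8, and Chst4, a sulfotransferase of the same pathway, at 53.1 against 0.33 CPM. Lyve1, Mmrn1 and Reln, genes of lymphatic vessels, had UMIs in 1 of the 18. Madcam1, an adhesion molecule of some such venules, had none. By a gate on Selp and Ackr1, venous EC had 2227, 3.15 and 20.4 CPM of Ccl21a, from 101, 267 and 253 barcodes. In Foxn1Lin female the barcodes rich in Ccl21a were not left out of this gate, and 12 of the 18 had Ackr1 UMIs. The gate for lymphatic EC held 7, 0 and 3 barcodes, too few for a level.

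Ccl19, the other CCR7 ligand, had like levels in several classes. Mural cells had 337, 977 and 573 CPM. FB had 203, 657 and 449 CPM, and TEC 324, 377 and 229. Mural cells were highest in each library, but the ranges of mural cells and FB overlapped over the libraries, as did those of FB and TEC. EC, at 24.4, 11.3 and 6.02 CPM, lay below all of them. Empty droplets held 210, 313 and 218 CPM, above FB of Foxn1Lin female, close to TEC of WT male and below mural cells in every library, in Foxn1Lin female only with 1 barcode that held 47.1% of the mural UMIs. By class, Ccl19 was higher in mural cells (2.41 ± 0.37, adjusted p = 0.00056) and in FB (1.73 ± 0.38, adjusted p = 0.004), and lower in EC (-4.78 ± 0.55, adjusted p = 4.2e-05). The FB call was lost without Foxn1Lin male (adjusted p = 0.0507) and without WT male (0.0793). TEC gave 0.65 ± 0.38 (adjusted p = 0.17), and a call without Foxn1Lin female (0.73, adjusted p = 0.000714). Barcodes in no class held 257, 1174 and 460 CPM, which was 12.9% to 25.4% of its UMIs in called barcodes.

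The mural level of Ccl19 rested on few barcodes. In Foxn1Lin female a single barcode held 306 of 650 UMIs (47.1%), and without it the level was 179 CPM, below FB and TEC of that library. In Foxn1Lin male and WT male the 10% of mural barcodes richest in it held 89.9% and 85.2%. After thinning, 6.36%, 22.0% and 19.5% of mural cells had a Ccl19 UMI, against 21.7%, 47.3% and 34.8% of FB and 25.5%, 27.1% and 22.5% of TEC. The shares therefore had another order than the levels, and no order was read from them.

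Mural barcodes with and without Ccl19 differed in other genes. The mural list Myl9, Tagln, Myh11, Cspg4 and Notch3 summed to 4869, 5404 and 4218 CPM in mural barcodes with Ccl19 and to 9829, 11045 and 10368 CPM in those without. Spp1, which encodes the matrix protein osteopontin, was at 541, 681 and 119 CPM against 1.82, 3.89 and 1.27. Cd74, the invariant chain of MHC class II, was at 3781, 632 and 1425 CPM against 102, 55.5 and 41.3. Dcn, the FB gene of the proteoglycan decorin, was at 369, 2264 and 1100 CPM with Ccl19 and at 358, 30.5 and 39.4 without, so it was far higher with Ccl19 in both male libraries and about equal in Foxn1Lin female. The part of other cell types in the mural Ccl19 level was not tested. Spp1, Cd74, Syt1, Ccl11 and H2-Ab1 were the 5 genes that differed most by the rule over libraries. Mural barcodes with no Myh11 UMI had 636, 1899 and 546 CPM of Ccl19, above the 288, 785 and 384 CPM of those with at least 3.

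Within TEC, Ccl19 and Ackr4 were highest in different gates. The Aire gate had 947, 1281 and 733 CPM of Ccl19, and the cortical gate 89.6, 94.2 and 157. For Ackr4 the cortical gate had 65.7, 125 and 103 CPM and the Aire gate 1.89, 1.09 and 2.43. The values of the gates did not overlap in either gene, and the genes were reversed in order in all 3 libraries. With Ackr4 in 22, 37 and 57 thinned TEC and Ccl19 in 115, 111 and 191, only 1, 2 and 3 barcodes had both, where the product of both shares would give 5.61, 10.0 and 12.8. This is a description of the barcodes of each library, which are not replicates.

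Ackr4 had few UMIs, and its leading class was TEC. It stood at 31.0, 48.1 and 40.8 CPM in TEC, at 5.55, 0.39 and 1.61 in EC and at 1.82, 0.58 and 1.51 in FB. In mural cells it had 0, 1 and 0 UMIs, and a count of 0 allows 3 UMIs. Ackr4 was higher in TEC by 5.46 ± 0.51 (adjusted p = 5.9e-06). The lower call in mural cells (adjusted p = 0.012) rests on libraries at or near 0, so no fold is given, and it was lost without WT male (adjusted p = 0.137) and with higher gates (0.254). Thinned, 4.88% (95% interval 3.08 to 7.29), 9.02% (6.43 to 12.2) and 6.71% (5.12 to 8.61) of TEC had a UMI, against 0.569%, 0% and 0% of EC. Of the 52 EC UMIs in Foxn1Lin female, 18 came from the 7 barcodes of the lymphatic gate. Gpc5, Grm8, Fat3, Pltp and Gm13629 differed most between TEC with and without Ackr4.

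**Figure D3:**
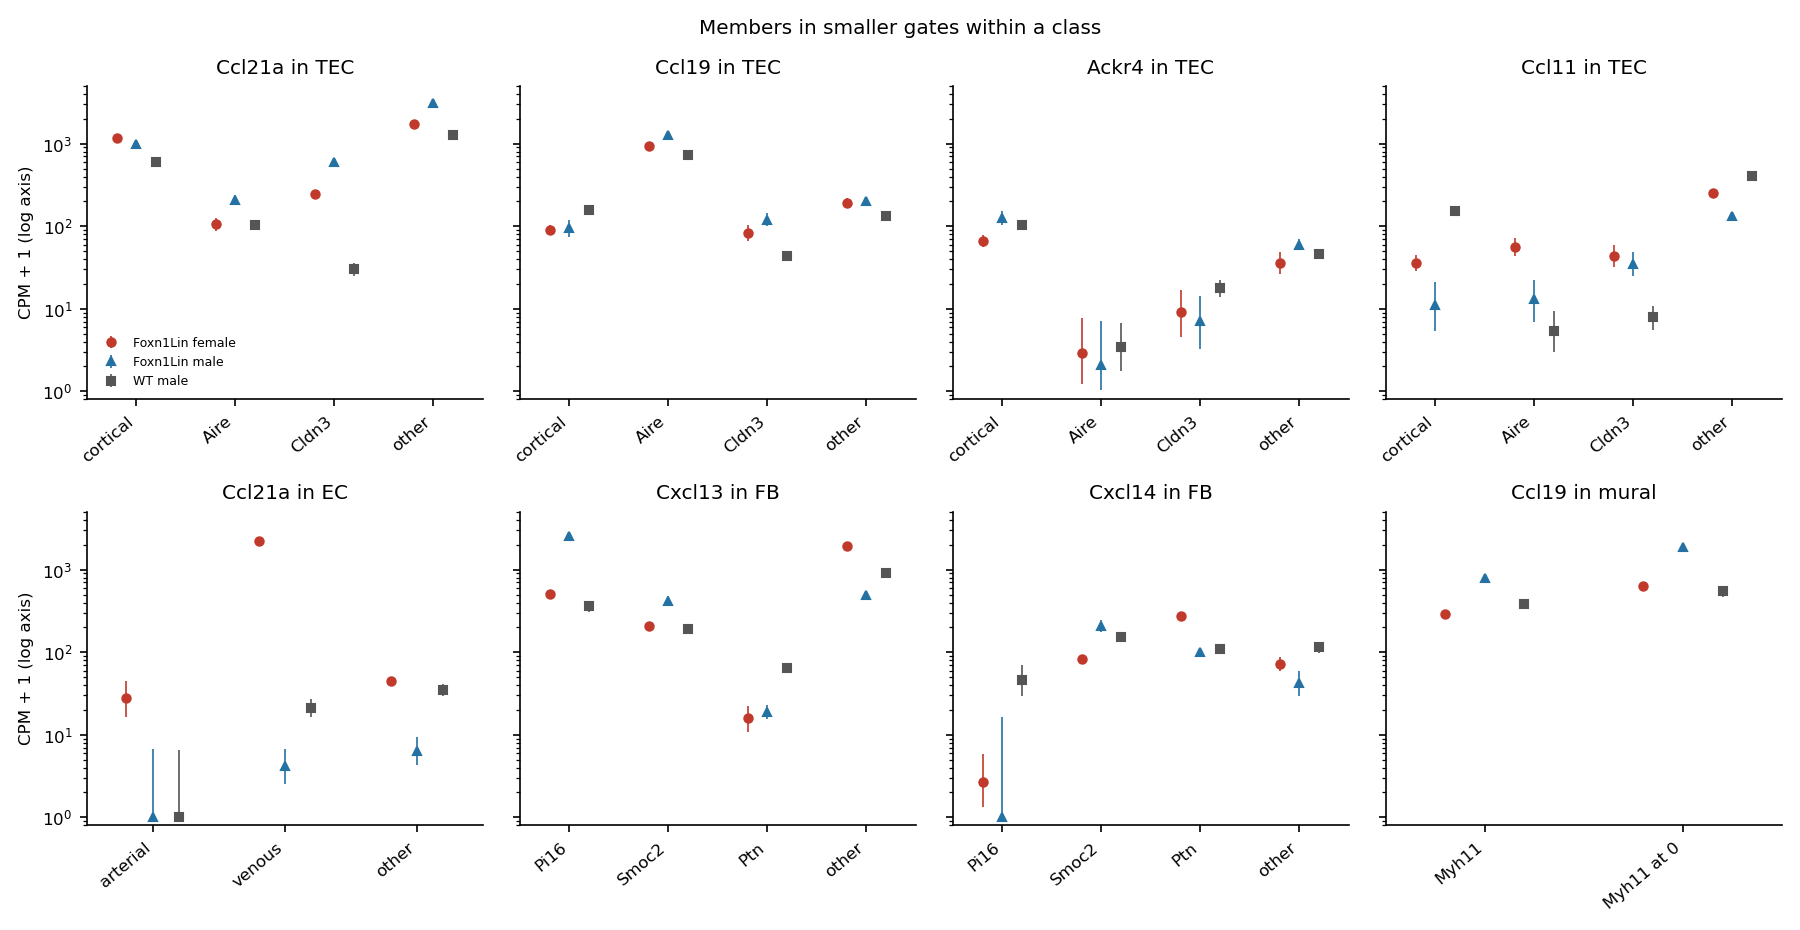
Level of 6 members in smaller gates within a class, as CPM plus 1 on a log axis with 95% Poisson intervals, for gates with at least 20 barcodes in a library. Ackr4 and Ccl19 stand highest in opposite TEC gates. Venous EC of Foxn1Lin female stand at 2227 CPM of Ccl21a, far above the 3.15 and 20.4 CPM of the other libraries. The EC barcodes rich in Ccl21a were not left out of that value.

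Cxcl13 was a gene of few FB. FB had 390, 332 and 206 CPM, above mesothelial cells (15.7 and 68.2 CPM), TEC (14.0, 18.2 and 7.52), mural cells (10.4, 8.75 and 38.2) and EC (11.8, 2.23 and 1.74). The 68.2 CPM of WT male rests on 31 UMIs in 2 of 36 mesothelial barcodes. Empty droplets held 131, 169 and 64.0 CPM, below FB and above TEC, mural cells and EC in every library. The log2 fold change of Cxcl13 in FB was 4.93 ± 0.52 (adjusted p = 3.1e-05). It was lower in EC (-2.91 ± 0.71, adjusted p = 0.0065), though not without Foxn1Lin male (adjusted p = 0.0541) or with lower gates (0.058). The 10% of FB richest in it held 92.8%, 99.5% and 98.1% of its UMIs, and 13.1%, 8.25% and 8.37% of thinned FB had one. By smaller gates, the Pi16 gate, which marks fibroblasts of the adventitia and capsule, had 507, 2580 and 358 CPM, from 197, 23 and 48 barcodes, and FB with none of the Pi16, Smoc2 and Ptn gates had 1944, 499 and 914. The Ptn gate had only 14.8, 17.8 and 64.1 CPM. Fn1, Cd55, Opcml, Gpr39 and Wt1 differed most between FB with and without Cxcl13. Fn1, the gene of fibronectin, was at 976, 586 and 657 CPM with Cxcl13 and at 348, 45.8 and 127 without. Wt1, a gene of the mesothelial list, was at 455, 263 and 266 CPM with Cxcl13 and at 209, 18.8 and 69.4 without, and the part of mesothelial cells in the FB level of Cxcl13 was not tested.

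Ccl11 marked FB most evenly. FB had 535, 1357 and 641 CPM, mural cells 93.4, 247 and 161 and TEC 77.9, 68.4 and 153. Its log2 fold change in FB was 3.75 ± 0.40 (adjusted p = 3.7e-05), and in EC -3.65 ± 0.57 (adjusted p = 0.00036). The 10% of FB richest in it held 37.6%, 39.5% and 40.2% of the UMIs, the smallest share of any member in its leading class. Thinned, 52.7%, 71.2% and 57.5% of FB had a Ccl11 UMI, against 4.05%, 1.13% and 1.22% of EC. Ccl11 was present in all FB gates, barcodes in several of them included, at 347 to 693 CPM for Foxn1Lin female, 420 to 1543 CPM for Foxn1Lin male, 510 to 721 CPM for WT male. Smpd3, Pla1a, Ptx3, Clec3b and Gsn differed most between FB with and without it.

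In TEC, UMIs of Ccl11 and Ccl21a were often in the same barcodes. The TEC level of Ccl11 lay below that of empty droplets (153, 416 and 231 CPM) in every library, as did the mural and EC levels, whereas FB lay above it. TEC outside the cortical, Aire and Cldn3 gates had 254, 131 and 405 CPM of Ccl11, the highest of the TEC gates in each library. After thinning, Ccl11 and Ccl21a were found together in 24, 19 and 48 TEC, which was 3.22, 2.91 and 3.10 times the product of both shares. Of TEC with Ccl11, 68.6%, 70.4% and 52.2% also had Ccl21a. The FB list summed to 405, 276 and 280 CPM in TEC as a whole, and neither its part nor that of free RNA in these counts was tested.

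**Figure D4:**
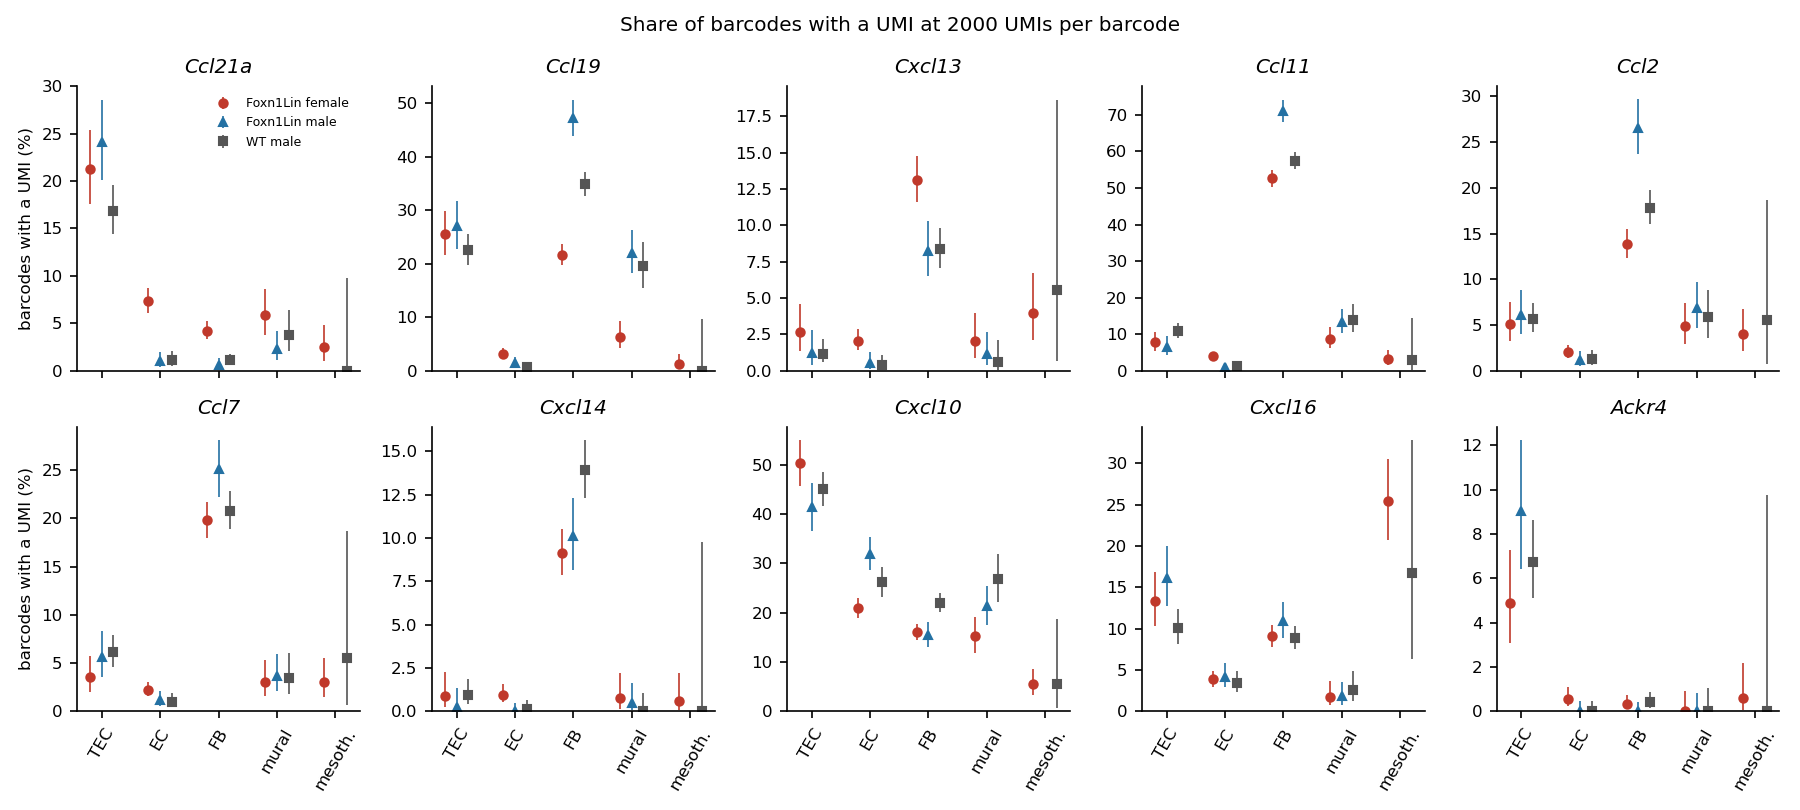
Share of barcodes with at least 1 UMI of each member after thinning to 2000 UMIs per barcode, by class and library, with 95% Clopper-Pearson intervals. Ccl11 was found in 52.7% to 71.2% of FB and Ackr4 in 4.88% to 9.02% of TEC.

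Ccl2 and Ccl7 were FB genes that appeared together. FB had 153, 469 and 334 CPM of Ccl2 and 226, 388 and 361 CPM of Ccl7. Mural cells had 35.3, 174 and 125 CPM of Ccl2 and 12.4, 48.1 and 79.7 of Ccl7, so that the ranges of FB and mural cells overlapped for Ccl2 but not for Ccl7. In FB the log2 fold change was 2.92 ± 0.28 for Ccl2 (adjusted p = 1.8e-05) and 3.67 ± 0.33 for Ccl7 (adjusted p = 1.1e-05). Both were lower in EC, by -2.84 ± 0.39 (adjusted p = 0.00014) and -3.06 ± 0.46 (adjusted p = 0.00027). Ccl2 was also lower in TEC (-0.90 ± 0.33, adjusted p = 0.037), a call that did not survive in 7 of the alternatives. In mural cells Ccl2 gave 0.82 ± 0.31 (adjusted p = 0.069), and 1.23 (adjusted p = 3.8e-05) without Foxn1Lin female. Its mural UMIs lay in 24, 49 and 33 barcodes. The mural and TEC levels of Ccl2 were below empty droplets (82.8, 252 and 204 CPM) in every library. The part of free RNA in them was not tested.

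The genes lie side by side on chromosome 11, where Ccl2 spans 82035571 to 82037453, Ccl7 82045712 to 82047525 and Ccl11 82057823 to 82062955, all on the plus strand of GRCm38 (GENCODE vM21). After thinning, 121, 113 and 176 FB had both Ccl2 and Ccl7, which was 2.43, 1.97 and 2.82 times the product of both shares. FB with Ccl2 had 484, 700 and 881 CPM of Ccl7 and FB without it 125, 127 and 85.6. Cxcl1 and Cxcl2, chemokines that attract neutrophils, were also among the 5 genes that differed most by Ccl2, and by Ccl7. Gm17268 led the list of Ccl2, and it spans the whole Ccl2 gene on the opposite strand, with 1883 bases in common, so its reads and those of Ccl2 cannot be separated with certainty.

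Cxcl14 was nearly restricted to FB among the classes. FB had 104, 144 and 184 CPM. TEC had 4.45, 3.26 and 1.92 CPM, EC 7.80, 0.53 and 1.07, and mural cells 2.59, 2.55 and 0.42. Its log2 fold change in FB, 6.07 ± 0.45 (adjusted p = 3e-06), was the largest of any member in any class. Thinned, 9.12%, 10.1% and 13.9% of FB had a UMI, against 0.948%, 0% and 0.122% of EC. Cxcl14 was called lower in TEC (-1.97 ± 0.62, adjusted p = 0.018) and in mural cells (-2.49 ± 0.79, adjusted p = 0.034), and each call was lost without Foxn1Lin male (adjusted p 0.0526 and 0.0601) or WT male (0.0841 and 0.174), the TEC call also with lower (0.0636) or higher gates (0.145). The Pi16 gate had 1.67, 0 and 45.0 CPM of Cxcl14, whereas the Ptn gate had 276, 99.1 and 108 CPM. Mmp9, Csf2rb, Dkk2, Ctsc and Mme differed most between FB with and without Cxcl14.

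Cxcl10 had UMIs in every class and its highest level in TEC. TEC had 1031, 1319 and 1016 CPM, mural cells 218, 605 and 848, EC 266, 672 and 492 and FB 177, 254 and 376. Mesothelial cells had 50.9 and 46.2 CPM in Foxn1Lin female and WT male. The gene was higher in TEC (1.20 ± 0.28, adjusted p = 0.0034) and lower in FB (-1.20 ± 0.32, adjusted p = 0.011) and in mesothelial cells (-3.11 ± 0.45, adjusted p = 0.00057), and the FB call was lost without Foxn1Lin male (adjusted p = 0.122). Empty droplets held 397, 841 and 968 CPM, so EC, FB, mural and mesothelial cells lay below free RNA in every library and only TEC lay above it. Thinned, 50.3%, 41.5% and 45.1% of TEC had a UMI, against 5.50% and 5.56% of mesothelial cells.

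Cxcl9, another interferon-induced ligand of CXCR3, whose gene lies 18558 bases from Cxcl10 on chromosome 5, differed most between TEC with and without Cxcl10. By class, Cxcl9 was lower in TEC (-1.60 ± 0.40, adjusted p = 0.0051, edgeR) and higher in EC (1.86 ± 0.33, adjusted p = 0.00096). It was at 138, 133 and 193 CPM in TEC with Cxcl10 and at 26.4, 21.8 and 46.4 in those without. Gbp5, an interferon-induced GTPase, was at 174, 164 and 201 CPM against 31.7, 58.4 and 40.2, and S100a8, S100a9 and Rrad completed the list of 5. Venous EC, by the gate on Selp and Ackr1, had 527, 1069 and 750 CPM of Cxcl10 and arterial EC 113, 324 and 98.6.

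Some mural barcodes held UMIs of both Cxcl10 and Ccl19. After thinning, 11, 41 and 38 had both, 2.88, 2.00 and 2.11 times the product of both shares, with the mural level of Cxcl10 below that of free RNA, whose part was not tested. The RefSeq promoter windows of both genes hold the letters GAAA, any 2 bases and GAAA again, the core of the element through which interferon-activated factors bind DNA. The sequences are RefSeq's on GRCm38.p6, the 250 bases before the Cxcl10 start site (chr5:92348890-92349139, minus strand) and 30 bases of the Ccl19 window (chr4:42756554-42756583, minus strand), with capitals for that element and, in Cxcl10, for GGGA, any 2 bases and TTCC, a form of the NF-kappaB site.
Cxcl10: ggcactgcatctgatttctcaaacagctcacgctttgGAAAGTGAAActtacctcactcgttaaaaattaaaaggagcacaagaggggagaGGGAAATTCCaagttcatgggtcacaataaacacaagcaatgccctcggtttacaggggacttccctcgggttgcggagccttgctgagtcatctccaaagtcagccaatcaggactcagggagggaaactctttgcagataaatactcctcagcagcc
Ccl19: ttttgggacaGAAAGTGAAAgctcaaggca
The element begins 213 bases before the start in Cxcl10 and 208 before that of Ccl19 by RefSeq. By GENCODE vM21 the Ccl19 gene, on the minus strand, starts at 42756577, so there the element lies within the gene, just downstream of its start. Searched on both strands of 300 bases per gene, the first motif is in 3.44% and the NF-kappaB form in 1.47% of 32851 promoters. Of the 6 members in that table, Ccl19, Cxcl10 and Cxcl14 hold the first and Cxcl10 the second. A match describes letters and shows no binding.

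Cxcl16 was led by mesothelial cells. They had 118 CPM in Foxn1Lin female and 143 in WT male. TEC had 85.2, 100 and 60.9 CPM, FB 50.1, 55.4 and 49.5, EC 21.6, 21.7 and 15.1 and mural cells 10.4, 13.5 and 17.0. The ranges of mesothelial cells, TEC, FB and EC did not overlap between neighbors in that order, while EC and mural cells overlapped. Empty droplets held 49.8, 64.9 and 83.6 CPM, so mesothelial cells lay above free RNA in both libraries, TEC in both Foxn1Lin libraries but not in WT male, while FB matched free RNA in Foxn1Lin female and lay under it in both male libraries. Cxcl16 was higher in mesothelial cells (2.03 ± 0.19, adjusted p = 2.6e-05), TEC (1.42 ± 0.15, adjusted p = 1.6e-05) and FB (0.99 ± 0.15, adjusted p = 0.00047), and lower in EC (-0.84 ± 0.17, adjusted p = 0.0023) and mural cells (-1.57 ± 0.20, adjusted p = 0.00014). Of thinned mesothelial barcodes, 25.4% (95% interval 20.8 to 30.5) and 16.7% (6.37 to 32.8) had a UMI. Slurp1, Olr1, Myl7, Crym and Ifit1 differed most between mesothelial barcodes with and without it. Mesothelial cells were also lower in Ccl19 (-4.71 ± 0.77, adjusted p = 0.0012) and Ccl11 (-3.66 ± 0.78, adjusted p = 0.0057), on 340 and 36 barcodes. The Ccl11 call was lost without WT male (adjusted p = 0.111) and the Ccl19 call with lower gates (-0.73, adjusted p = 0.612).

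Genes of like pattern over the 14 sums of library and class, by Pearson's r of log2(CPM + 5) among 6884 genes that reached 50 CPM, were as follows. Tnc (r = 0.95), which encodes the matrix protein tenascin C, was most like Ccl19, Entpd2 (0.97) most like Cxcl13, Arhgap24 (0.98) most like Ccl11, and Tspan11 (0.98) and then Pdgfra (0.98), which gates FB, most like Cxcl14. Il23a (0.90) was most like Ccl21a, Mid2 (0.92) most like Cxcl10 and Creld2 (0.96) most like Cxcl16. Ccl2 and Ccl7 were each the third in the list of the other (0.94). Ackr4 stayed under 50 CPM and was not compared. The sums share libraries and classes, so these values are descriptions.

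Other chemokine and receptor genes were counted in the same fits. Of 46 such genes 45 were in the tables and 32 were tested. In TEC 22 were higher and 6 lower, where 32.3% and 25.4% of all genes were. In FB 6 were higher and 12 lower (20.2% and 19.9% of all genes), in EC 8 and 9 (22.7% and 22.7%), in mural cells 2 and 8 (17.1% and 13.7%) and in mesothelial cells 1 and 4 (13.0% and 11.5%). Without WT male the counts were 4 and 5 in EC, 2 and 2 in mural cells and 0 and 3 in mesothelial cells. Without Foxn1Lin male they were 5 and 9, 0 and 6, and 1 and 7, and without Foxn1Lin female 2 and 2 in mesothelial cells. The genes with the largest fitted changes were Xcl1 (6.52 ± 0.87, the widest SE of these), Ccl20 and Ccl6 in TEC, all higher. They were Ackr1, which was higher, and Cxcl5 and Ccl9, which were lower, in EC, and Ackr2, which was higher, and Ccr4 and Ccr6, which were lower, in FB. Ackr2 and Ccl8 were lower in mural cells, and Cxcr5, Cxcl9 and Cxcl12 in mesothelial cells. Ackr2 had 0 UMIs in mural cells of all 3 libraries and Cxcr5 0 in mesothelial cells of both, and Ccr4 and Ccr6 in FB, Cxcl5 in EC and Ccl8 in mural cells had at most 4 UMIs in a library, so the sizes of these fitted changes depend on the prior count. Ccl20, which attracts cells with CCR6, was higher in TEC by 5.87 ± 0.21 (adjusted p = 2.8e-08), Ackr1, the atypical receptor of venules, in EC by 6.22 ± 0.58 (adjusted p = 8.9e-06) and the scavenger Ackr2 in FB by 4.84 ± 0.51 (adjusted p = 9.6e-05).

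Chosen after their values were seen, as partners of the members in the thymus, Ccl25, the ligand of CCR9, was higher in TEC (4.33 ± 0.26, adjusted p = 3.2e-07), as was Ccr7, the receptor of CCL19 and CCL21 (4.66 ± 0.30, adjusted p = 4.7e-07), and Cxcl12, a ligand of CXCR4, in EC (2.40 ± 0.21, adjusted p = 5.1e-06). The hematopoietic list, with Ptprc among its 10 genes, summed to 815, 494 and 448 CPM in TEC and to 18.4 to 208 CPM in the other main classes, with all of its genes present in TEC, and its part in the TEC counts was not tested.

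Levels also differed between libraries, which the design cannot test, since sex, genotype and library cannot be told apart from each other with 1 library each. Between Foxn1Lin female and Foxn1Lin male, 2 of 10 members differed 2-fold or more in TEC (17.7% of all genes did), 7 of 10 in EC (18.1%), 5 of 10 in FB (18.6%) and 6 of 8 with at least 20 UMIs in mural cells (14.0%). In FB, Ccl19 (3.24-fold), Ccl11 (2.54-fold) and Ccl2 (3.06-fold) were higher in Foxn1Lin male. Ccl21a (5.32-fold) and Ackr4 (3.14-fold, with 5 UMIs in Foxn1Lin male) were higher in FB of Foxn1Lin female. These FB levels of Ccl21a (17.9 and 3.36 CPM) and Ackr4 (1.82 and 0.58) lay below empty droplets (432 and 426, 11.3 and 17.3). The Poisson intervals of Ackr4 overlapped. Ccl19 in FB of Foxn1Lin female (203 CPM) was also below empty droplets (210), and the part of free RNA in these FB values was not tested. In mural cells Ccl21a, Ccl19, Ccl11, Ccl2, Ccl7 and Cxcl10 were higher in Foxn1Lin male, by 2.65-fold to 4.93-fold. All of these but Ccl19 lay below empty droplets in both libraries, and Ccl19 of Foxn1Lin female did so, at 179 CPM, without its richest barcode, which widens its 2.90-fold difference. Empty droplets of Foxn1Lin male were also higher than those of Foxn1Lin female in Ccl19 (313 against 210 CPM), Ccl11 (416 against 153 CPM), Ccl2 (252 against 82.8), Ccl7 (142 against 79.6) and Cxcl10 (841 against 397), but not in Ccl21a (426 against 432), and the part of free RNA in the mural values was not tested. In EC of Foxn1Lin female, Ccl21a (67.5-fold), Ccl11 (3.67-fold), Cxcl13 (5.26-fold) and Ccl19 (2.16-fold) were higher, and so were Cxcl14 and Ackr4, which had 4 and 3 UMIs in Foxn1Lin male. Cxcl10 went the other way in EC, 2.52-fold higher in Foxn1Lin male. Each of these 7 EC levels lay below that of empty droplets in both Foxn1Lin libraries, among them Ccl21a (266 against 432 CPM in Foxn1Lin female), Ccl11 (27.5 against 153), Cxcl13 (11.8 against 131) and Ccl19 (24.4 against 210). The FB list summed to 697, 66.8 and 101 CPM in EC, and neither its part nor that of free RNA in these EC values was tested.

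Between Foxn1Lin male and WT male, 3 of 10 members differed 2-fold or more in TEC (15.2% of all genes), 1 of 8 in EC (10.0%), 3 of 10 in FB (10.9%) and 2 of 8 in mural cells (11.2%). Ccl21a was among them in all 4 classes, higher in Foxn1Lin male in TEC (3.15-fold) and mural cells (2.10-fold) and lower in EC (6.55-fold) and FB (3.27-fold). The EC difference rests on the 3 WT male barcodes rich in Ccl21a, without which the levels were 3.94 and 6.06 CPM. Ccl11 was 2.24-fold lower in TEC and 2.12-fold higher in FB of Foxn1Lin male. In EC, FB and mural cells of both libraries, Ccl21a lay below empty droplets (426 and 238 CPM). Its mural UMIs lay in 20 and 22 barcodes. In TEC, Ccl11 (68.4 and 153 CPM) was also below empty droplets (416 and 231), and the part of free RNA was not tested. Cxcl10, Cxcl16, Ccl2, Ccl7 and Ccl19 stayed within 2-fold in TEC, EC, FB and mural cells between both male libraries. Scaling by TMM changed none of these counts, and moved the median log2 ratio over all genes between both Foxn1Lin libraries in mural cells from 0.07 to -0.06.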

How the data were processed

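The authors deposited count tables of UMIs per gene and barcode, made with Cell Ranger (7.01 in the submitters' processing notes, 7.0.1 in the matrix header); the notes name GRCm38.p5 and mm10. The strand setting of the counting is not given in the sources used here. Called barcodes were gated on counts, doublets were kept in the main result and left out in an alternative, and UMIs were summed per library and class. Sums of at least 20 barcodes (14 of them) entered edgeR 4.0.16 (R 4.3.3; DESeq2 1.42.0 as an alternative), with all libraries in 1 fit, the library as a block, TMM scaling and adjusted p under 0.05. The class fits and their library block describe differences within these thymi. Differences between libraries were not tested: a ratio was counted at 2-fold with at least 20 UMIs over both, and 0 was set to 3 counts. Levels (CPM) have 95% Poisson intervals, and shares were thinned to 2000 UMIs per barcode with 95% Clopper-Pearson intervals (scipy 1.17.1), leaving out shallower barcodes. Median UMIs per called barcode were 4675, 7431 and 7947. The scripts were tested on simulated data.

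All 10 members are named. Besides them, the text names genes most like a member over the sums (pseudocount 5), the 5 genes with the largest lowest-of-libraries log2 ratio between barcodes with and without it in its leading class (at least 50 CPM, 10 CPM added), and the 3 largest changes per class among other chemokine genes, of which 1 is not reported here. Members and lists were chosen with earlier results of these data known.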

Additional observations from a re-analysis of the deposited data

Results flagged for a closer look

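Each class was set against the mean of the other main classes, on the scale of log2(CPM + 1). In 3 cases a class lay 1 unit or more above that mean in one library and 1 unit or more below it in another. Smaller turns of direction also occurred, as for Ccl2 in mural cells (-0.235, 1.145 and 1.080), and were not flagged. These differences between libraries were not tested, since each group is a single library. Ccl21a in EC stood at 1.699, -4.347 and -1.488, for Foxn1Lin female, Foxn1Lin male and WT male. Ccl21a in mural cells stood at -2.139, 2.095 and 0.2856, from 68, 383 and 160 UMIs in 55, 20 and 22 barcodes. The share of mural barcodes with a Ccl21a UMI ran the other way from the level between both Foxn1Lin libraries, at 12.9% in Foxn1Lin female and 4.45% in Foxn1Lin male (5.85% and 2.29% thinned). Cxcl13 in mural cells stood at -1.889, -1.493 and 1.213, from 20, 24 and 92 UMIs. Those UMIs lay in 15, 8 and 2 mural barcodes, so the value of WT male rests on 2 of 353 barcodes.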

How the results depend on the processing

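No paired analysis was possible because each group is a single library, so the groups share fewer than 2 replicate numbers; the library stood as a block in the class fits. Without the library block, the count of members lower in TEC went from 2 to 1 and Ccl21a in EC from -0.49 to 0.1643 on the log2 scale (adjusted p = 0.924, edgeR). The TEC count was also 1 with DESeq2 size factors, no low-count filter, lower gates, doublets left out or Ptprc barcodes left out, and 3 with the stricter cell filter. Members lower in FB numbered 3 with higher gates. Members higher in mural cells numbered 2 under lower gates, and members lower in mesothelial cells 5 by DESeq2. At 3-fold, the members counted between Foxn1Lin female and Foxn1Lin male were 0 in TEC and 3 in mural cells, and between Foxn1Lin male and WT male 1 in TEC, 1 in FB and 1 in mural cells. Leaving out each library in turn gave 4 to 5 members higher and 0 to 2 lower in TEC, 0 to 0 and 5 to 8 in EC, 6 to 7 and 1 to 2 in FB, 1 to 2 and 1 to 3 in mural cells, and 2 to 4 lower in mesothelial cells. Without Foxn1Lin male, Ccl21a in EC was 0.5377 (adjusted p = 0.613), and without Foxn1Lin female -2.521 (adjusted p = 0.0345). Members lower in EC numbered 7 with no low-count filter, by DESeq2, or with doublets or Ptprc barcodes left out, and 5 with lower gates. Members lower in mural cells numbered 4 with lower and 2 with higher gates, and in mesothelial cells 2 with lower gates. Of the other chemokine genes, 5 were higher and 12 lower in EC with Ptprc barcodes left out, 5 and 6 with no library block and 8 and 5 under lower gates, 1 was higher in mural cells under lower and under higher gates, and 7 were lower in mesothelial cells by DESeq2 and with no low-count filter. Single fitted changes were followed for 32 pairs of member and class, which are the pairs with a call, and Ccl19 in TEC, Ccl21a in EC and Ccl2 in mural cells, so calls gained by other pairs show in the counts of members alone. Of their values, 355 kept direction and call over the alternatives, 23 lost the call, 4 gained it and 2 turned. With higher gates, Ccl19 was highest in TEC in Foxn1Lin female, as it was by the mean of CPM per barcode. Leaving out the EC barcodes rich in Ccl21a and the mural barcode with most Ccl19 was chosen after seeing the data. DESeq2 size factors moved the median change over all genes in TEC from 0.09 to 0.19. Ackr4 rests on 202 to 743 UMIs in TEC, which limits its precision.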
